A study of Mus musculus with 8 samples.

Results

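The transcripts described here are 8 long noncoding RNAs, chosen by gene symbol: the nuclear RNAs Malat1 and Neat1, the imprinted RNAs Meg3, Rian, Mirg and H19, and the small nucleolar RNA (snoRNA) host genes Gas5 and Snhg1. All 8 symbols had a row among the 24394 symbols shared by the 8 libraries. The libraries came from brain endothelial cells, the lining cells of blood vessels, sorted by flow cytometry from C57BL/6J mice at postnatal day 8. There were 4 libraries labelled wild type (WT) and 4 labelled YAPTAZ-ECKO, from mice carrying VE-cadherin-CreERT2 together with Yapf/f and Tazf/f. There the endothelial VE-cadherin promoter drives a Cre recombinase that tamoxifen switches on, and the floxed genes Yap and Taz encode co-activators through which Hippo signalling acts on transcription. The WT label names neither Cre nor floxed alleles. Effects of these and of tamoxifen, whose dosing the labels leave out, cannot be told apart from the deletion. Nothing in the labels ties libraries to separate animals, and p-values here measure the spread between libraries, which may be technical. In bulk samples, fewer cells of a type and less RNA per cell cannot be told apart.

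Long noncoding RNAs act as RNA and are not translated into a main protein product. Malat1 gathers in nuclear speckles, where splicing factors are stored, and Neat1 is the scaffold around which paraspeckles form. Meg3, Rian and Mirg are transcribed one after another from the maternal chromosome of the Dlk1-Dio3 domain, and H19 is expressed from the maternal chromosome beside the paternally expressed growth factor gene Igf2. Gas5 and Snhg1 carry box C/D snoRNAs in their introns, and their spliced RNA is a known substrate of nonsense-mediated decay. Malat1 is a known regulator of endothelial growth, and Meg3 of angiogenic signalling.

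All 8 genes carry the annotation tag for a host of small RNAs in GENCODE release M21 (GRCm38), a tag held by 1704 of 55450 genes (3.07%). Malat1 (chromosome 19, 5795690 to 5802672, minus strand) and Neat1 (chromosome 19, 5824708 to 5845478, minus strand) lie 22036 bases apart. Snhg1 lies on the same chromosome (8723475 to 8726443, plus strand). Meg3 (109541001 to 109571726), Rian (109603940 to 109661716) and Mirg (109729764 to 109749460) follow each other on the plus strand of chromosome 12, within 208460 bases. H19 (142575529 to 142578143, minus strand) is on chromosome 7 and Gas5 (161034422 to 161038539, plus strand) on chromosome 1.

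The mature Malat1 RNA ends without a poly(A) tail of the usual kind. Its 3′ end is cut just before a tRNA-like small RNA, and an A-rich tract encoded in the gene folds into a triple helix there. That end is shown because the labels do not settle how such an RNA entered these libraries. The window is chr19:5795940-5796059 (GRCm38, minus strand, from transcript Malat1-201), written 5′ to 3′, and the capitals mark the longest run of A in the transcript, 12 bases.
Malat1 3′ region: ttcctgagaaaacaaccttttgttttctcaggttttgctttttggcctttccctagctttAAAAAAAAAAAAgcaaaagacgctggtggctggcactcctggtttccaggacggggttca
Runs of A this long were not particular to Malat1 among the 8 genes: Meg3-209 held one of 16 and Rian-201 one of 15.

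The imprinted members host microRNAs (miRNAs). RefSeq places 37 mature miRNAs inside the members' coordinates on the same strand: 26 in Mirg, 6 in Rian, 3 in Meg3 and 2 in H19. The 2 from H19 are shown because they are the processed product of that RNA, and the pair from Mirg because they were the only ones in a single host to share a seed. Capitals mark the seed, bases 2 to 8, and the sequences are RefSeq's for GRCm38.p6.
mmu-miR-675-5p (H19): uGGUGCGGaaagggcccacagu
mmu-miR-675-3p (H19): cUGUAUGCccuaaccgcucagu
mmu-miR-453 (Mirg): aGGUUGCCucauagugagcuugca
mmu-miR-496a-5p (Mirg): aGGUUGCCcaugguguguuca
The tables held 29 rows for miRNAs and snoRNAs inside the members, of which 2 were above 0 in any library. Both were snoRNAs: Snord22 in Snhg1, above 0 in 5 libraries with a highest value of 139, and Snord47 in Gas5, at 235 in YAPTAZ-ECKO 3 only. The reads of such rows cannot be told apart from those of the host.

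RefSeq windows of 300 bases around annotated starts were held for Malat1, Meg3, Gas5, Snhg1, Rian and Mirg, with more than 1 for Meg3 and Gas5. Both strands were searched for TGACGTCA, the cyclic AMP response element, for GGAATG, the core of the motif bound by TEAD factors (the partners of YAP and TAZ), and for TATAAA, the TATA box. TGACGTCA was found in 1 window each of Meg3 and Gas5, against 1.79% of 32851 windows of all genes. GGAATG was found in the window of Rian and in no other window of these genes, against 14.7% of all windows. TATAAA was found in 1 window each of Meg3 and Snhg1, against 13.6% of all windows. On the strand that reads as the RNA, a C followed by at least 4 pyrimidines was sought within 5 bases of the annotated start. Such a run, as in 5′ TOP (terminal oligopyrimidine) transcripts, was found in Gas5 and Meg3 and in 18.3% of all windows. The run in Meg3, 5 bases long, ended just before the annotated start. Shown, 5′ to 3′, are the windows of Meg3 and Gas5 that hold TGACGTCA, and that of Snhg1, the other snoRNA host. The window of Rian, with its GGAATG at -103 from the annotated start, is not shown. Capitals mark the matches.
Meg3, chr12:109540746-109541045, plus strand: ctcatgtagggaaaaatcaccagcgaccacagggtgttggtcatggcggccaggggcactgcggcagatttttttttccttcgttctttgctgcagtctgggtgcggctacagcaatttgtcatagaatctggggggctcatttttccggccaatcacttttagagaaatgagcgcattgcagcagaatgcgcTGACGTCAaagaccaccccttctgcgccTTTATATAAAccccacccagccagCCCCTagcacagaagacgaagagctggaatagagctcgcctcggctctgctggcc
Gas5, chr1:161034916-161035215, plus strand: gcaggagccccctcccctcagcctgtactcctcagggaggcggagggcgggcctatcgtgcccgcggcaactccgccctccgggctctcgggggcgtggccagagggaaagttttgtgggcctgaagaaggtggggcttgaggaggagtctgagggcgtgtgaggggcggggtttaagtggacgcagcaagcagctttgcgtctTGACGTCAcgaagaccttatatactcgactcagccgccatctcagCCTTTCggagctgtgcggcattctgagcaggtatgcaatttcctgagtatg
Snhg1, chr19:8723237-8723536, plus strand: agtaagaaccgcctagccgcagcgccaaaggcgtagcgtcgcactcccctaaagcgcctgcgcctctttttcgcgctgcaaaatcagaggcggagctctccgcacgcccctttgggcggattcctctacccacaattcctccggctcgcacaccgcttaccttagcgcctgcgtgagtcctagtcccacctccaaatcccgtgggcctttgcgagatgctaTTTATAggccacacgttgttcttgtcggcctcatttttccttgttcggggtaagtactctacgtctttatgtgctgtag
A match describes the letters of a window and says nothing of whether a factor was bound in these cells.

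Across the whole series, values are given as scaled reads, which are read counts brought to a common library size and returned from the deposited log2 scale. Each library summed to 10.29 to 10.93 M scaled reads, and the spacing of low values implied 6.76 to 16.8 M reads per library. Among endothelial markers, the 10 listed genes summed to 83370 to 98595 scaled reads in WT and 78388 to 107521 in YAPTAZ-ECKO. YAPTAZ-ECKO 1 stood apart: over tested genes its r with the other libraries was 0.684 to 0.723, against 0.734 to 0.839 among the other pairs, and it had the fewest symbols above 0, 7538. The targeted Wwtr1 (Taz) stood at 5650 to 8220 scaled reads in WT and at 348 to 2608 in YAPTAZ-ECKO. Yap1 stood at 1409 to 2833 in WT and at 9.29 to 605 in YAPTAZ-ECKO. The genes called at a Benjamini-Hochberg adjusted p under 0.05 by limma were Wwtr1, Bgn and Camk2d, all lower in YAPTAZ-ECKO, out of 8706 tested.

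None of the 8 long noncoding RNAs was among the genes called, against 0.0345% of all genes tested. Of the 8, 6 passed the filter of 10 scaled reads in 4 libraries and were tested, and Rian and Mirg were not. Malat1, H19, Meg3 and Neat1 had higher fitted values in YAPTAZ-ECKO, and 2 of 6, Snhg1 and Gas5, had lower ones, against 56.9% of all tested genes, with adjusted p-values from 0.872 to 0.996. Values of the groups overlapped for all 6, against 3.4% of all tested genes whose groups did not overlap. At an unadjusted p under 0.05 there was 1 of the 6, Malat1, against 5.47% of all tested genes. That side of the threshold depended on the setting: Malat1 stayed under it in 13 of 17 alternatives, H19 came under it in 1 and Snhg1 in 5. Fold changes are differences of log2(scaled reads + pseudocount), with a pseudocount whose log2 is 7, a scale that understates the change of genes with low values.

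**Figure D1:**
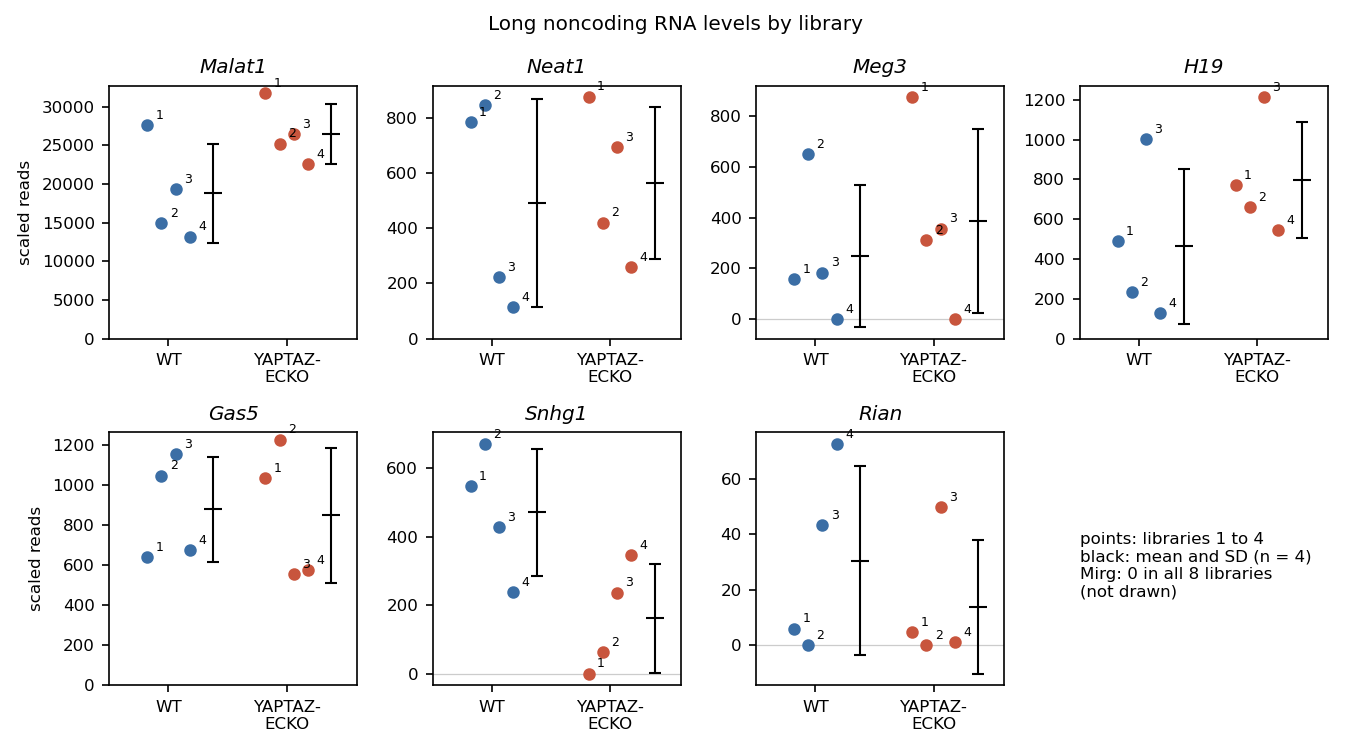
Scaled reads (y axis, linear) of the 7 long noncoding RNAs above 0, in WT (blue) and YAPTAZ-ECKO (red); points are libraries numbered 1 to 4, and black marks are the mean and SD (n = 4 each). The groups overlap in every panel; Malat1 runs from 13189 in WT 4 to 31718 in YAPTAZ-ECKO 1.

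Malat1, the speckle RNA, had the most scaled reads of the 8. Levels of different genes are not set against each other per length, because it is not settled which stretch of a transcript the reads cover. It stood at 27650, 14952, 19336 and 13189 scaled reads in WT 1 to 4 and at 31718, 25233, 26487 and 22553 in YAPTAZ-ECKO 1 to 4. Of the 4 WT libraries, 3 lay below all 4 YAPTAZ-ECKO libraries, and WT 1 lay above all but YAPTAZ-ECKO 1. The mean was 26497 ± 3848 in YAPTAZ-ECKO against 18782 ± 6453 in WT (SD, n = 4), giving a ratio of 1.41. The log2 difference was 0.54 ± 0.23 (SE), with a 95% interval from 0.06 to 1.02, an unadjusted limma p of 0.0285 and an adjusted p of 0.872. With upper quartile scaling the Malat1 estimate was 0.33 ± 0.25 (SE) with an unadjusted limma p of 0.195. Without WT 2, WT 4 or YAPTAZ-ECKO 1 it was 0.45, 0.39 and 0.45, with unadjusted limma p-values of 0.0814, 0.112 and 0.0813. By its p Malat1 ranked 282 among the 8706 genes tested. Malat1 took 0.121% to 0.307% of a library and ranked between 15 and 73 among all genes of a library by scaled reads. Its SD within groups on the log2 scale was 0.36, lower than for all but 8.42% of tested genes, whose median was 0.69. Genes with many reads had less counting error, which for Malat1 at 10507 to 45033 rebuilt reads would give a coefficient of variation of 0.642%. The measured coefficient was 34.4% in WT and 14.5% in YAPTAZ-ECKO.

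Neat1, the paraspeckle scaffold, varied within each group by more than the groups differed. It stood at 785, 847, 222 and 114 scaled reads in WT 1 to 4 and at 879, 421, 696 and 260 in YAPTAZ-ECKO 1 to 4. Both groups held high and low libraries, and the highest was 7.68 times the lowest. The mean was 564 ± 276 in YAPTAZ-ECKO against 492 ± 378 in WT (SD, n = 4 each). The log2 difference was 0.31 ± 0.57 (SE), with a 95% interval from -0.87 to 1.49 (limma adjusted p = 0.991). Its rebuilt reads numbered 114 to 1279 per library, so that counting error would give a coefficient of variation of 4.25% where 76.7% was measured in WT. PCR copies cannot be told from separate molecules here, so this counting error is a lower limit. With WT 4 left out, the difference of Neat1 turned to -0.06. Frmd8, a protein-coding gene 4224 bases from Neat1, differed by 0.26 ± 0.46 on the log2 scale (SE; limma adjusted p = 0.991). Neat1 has a short and a long transcript that share their start, and the tables give 1 value for both.

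**Figure D2:**
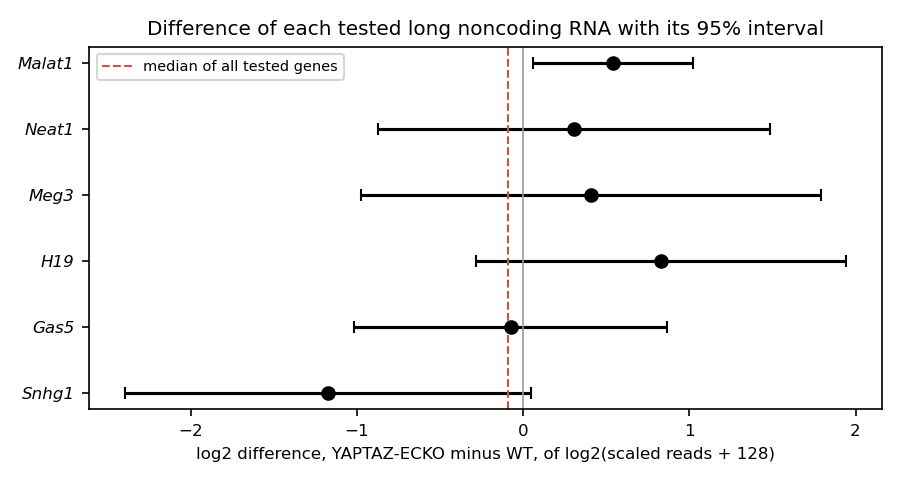
Log2 difference (x axis, YAPTAZ-ECKO minus WT, of log2(scaled reads + pseudocount)) of the 6 tested long noncoding RNAs; points are estimates, bars their 95% intervals, and the dashed line the median of all tested genes, -0.09. With all 8 libraries on the deposited scale the unadjusted interval of Malat1 (0.06 to 1.02) lies above 0 and the other 5 include 0; with upper quartile scaling the Malat1 estimate is 0.33 ± 0.25 (SE).

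Meg3, the first RNA of the maternal Dlk1-Dio3 cluster, was detected in 3 of 4 libraries of each group. It stood at 158, 649 and 183 scaled reads in WT 1 to 3 and was listed at 0 in WT 4. In YAPTAZ-ECKO it stood at 874, 311 and 356 in libraries 1 to 3 and was listed at 0 in library 4. Each group thus held a library at 0 and others well above it. The log2 difference was 0.41 ± 0.67 (SE), with a 95% interval from -0.98 to 1.79 (limma adjusted p = 0.990). The SD of Meg3 within groups, 1.15 on the log2 scale, was higher than that of 91.0% of tested genes. The difference turned to -0.01 without WT 4 and to -0.03 without YAPTAZ-ECKO 1.

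Meg3 is abundant in neurons, and neuronal markers were not evenly spread. The 9 listed neuronal markers summed to 103, 347, 15.6 and 5.97 scaled reads in WT 1 to 4 and to 1896, 218, 17.6 and 879 in YAPTAZ-ECKO 1 to 4. YAPTAZ-ECKO 1 was highest in both Meg3 and this sum, while YAPTAZ-ECKO 4, the next in the sum, listed Meg3 at 0. Most of the sum in YAPTAZ-ECKO 1 came from Rbfox3, at 1375, and Stmn2, at 520. In YAPTAZ-ECKO 4 Rbfox3 stood at 489 and Stmn2 at 0. Of the neuronal markers, Syt1, Gad1, Slc17a7 and Nefl were at 0 in all 8 libraries. The part of other cells in the level of Meg3 was not tested.

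The RNAs that follow Meg3 on chromosome 12 were at or near 0. Rian, which hosts box C/D snoRNAs, stood at 6.09, 0, 43.4 and 72.6 scaled reads in WT 1 to 4 and at 4.69, 0, 49.97 and 1.17 in YAPTAZ-ECKO 1 to 4. It was above 0 in 6 libraries and over 10 in 3, too few to be tested, and its highest libraries were of both groups. Mirg, the host of the miRNA cluster at the far end, was listed at 0 in all 8 libraries, as were the 14 miRNA rows inside it. The protein-coding genes of the domain were low as well. Dlk1, a membrane ligand related to Notch ligands, had group means of 6.13 scaled reads in WT and 0 in YAPTAZ-ECKO. Rtl1, a retrotransposon-like gene, had means of 0 and 0.332, and Dio3, a deiodinase, was listed at 0 throughout.

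H19 was above 0 in all 8 libraries. It stood at 491, 232, 1002 and 127 scaled reads in WT 1 to 4 and at 773, 661, 1213 and 547 in YAPTAZ-ECKO 1 to 4. Each YAPTAZ-ECKO library lay above 3 of the 4 WT libraries, and WT 3 lay among the YAPTAZ-ECKO values. The mean was 798 ± 291 in YAPTAZ-ECKO against 463 ± 390 in WT (SD, n = 4), giving a ratio of 1.72. The log2 difference was 0.83 ± 0.54 (SE), with a 95% interval from -0.28 to 1.94 (limma adjusted p = 0.980). The estimate was 1.22 without WT 3 and 0.50 without WT 4. A change of H19 by up to nearly 2 log2 units was within this interval.

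Igf2, the paternally expressed neighbour of H19 at 72623 bases, gave an estimate of the other sign. Igf2 stood at 1154, 211, 1580 and 1874 scaled reads in WT 1 to 4 and at 55.5, 1540, 373 and 1241 in YAPTAZ-ECKO 1 to 4. The groups overlapped, and the log2 difference was -0.71 ± 0.69 (SE; limma adjusted p = 0.990). WT 4 held the most Igf2 and the least H19, and YAPTAZ-ECKO 3 held the most H19 and 373 of Igf2. Other libraries went the other way: WT 3 was high in both, with 1002 of H19, and WT 2 low in both, with 232 of H19. A relation of H19 and Igf2 across libraries was not tested. Mrpl23, a mitochondrial ribosomal protein gene on the other side of H19, differed on the log2 scale by 0.31 ± 0.42 (SE; limma adjusted p = 0.990).

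Gas5, a host of box C/D snoRNAs that rises in cells whose growth has stopped, had nearly the same level in both groups. It stood at 638, 1048, 1154 and 674 scaled reads in WT 1 to 4 and at 1036, 1227, 553 and 576 in YAPTAZ-ECKO 1 to 4. In each group a pair of libraries lay above 1000 and a pair below 700, so the groups overlapped throughout. The mean was 848 ± 337 in YAPTAZ-ECKO against 879 ± 261 in WT (SD, n = 4), giving a ratio of 0.965. The log2 difference was -0.07 ± 0.46 (SE), with a 95% interval from -1.01 to 0.87 (limma adjusted p = 0.996). The sign changed in 4 of the 8 fits that left out 1 library. Zbtb37, a zinc finger gene that overlaps the annotated Gas5 locus, was listed at 0 in all 8 libraries. Serpinc1, which encodes antithrombin and lies 28559 bases away, was above 0 in 1 library of each group and was not tested. Snord47, the snoRNA row inside Gas5, stood at 235 in YAPTAZ-ECKO 3, the library with the lowest Gas5, and at 0 in all others. The part of host reads in that row was not tested.

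Snhg1, the other snoRNA host, had the lowest estimate of the 6. It stood at 547, 670, 427 and 237 scaled reads in WT 1 to 4. In YAPTAZ-ECKO it was listed at 0 in library 1 and stood at 62.9, 236 and 346 in libraries 2 to 4. The lowest WT library lay beside YAPTAZ-ECKO 3 and below YAPTAZ-ECKO 4, so the groups overlapped, while the 3 highest values were all WT. The mean was 161 ± 159 in YAPTAZ-ECKO against 470 ± 185 in WT (SD, n = 4), giving a ratio of 0.343. The log2 difference was -1.17 ± 0.59 (SE), with a 95% interval from -2.39 to 0.05 (limma adjusted p = 0.928). The estimate was -0.84 without YAPTAZ-ECKO 1, and -3.07 with voom on rebuilt reads, which adds a smaller offset to low values. Slc3a2, an amino acid transporter chain that starts 106 bases from Snhg1, stood at 17783 ± 3224 in YAPTAZ-ECKO against 18897 ± 3326 in WT (SD, n = 4 each; limma adjusted p = 0.991). Wdr74, on its other side, was above 0 in WT 4 and YAPTAZ-ECKO 3 only. Snord22, the snoRNA row inside Snhg1, stood at 0, 14.4, 9.51 and 39.8 scaled reads in WT 1 to 4. In YAPTAZ-ECKO 1 to 4 it stood at 3.14, 139, 0 and 0, so in library 2 it exceeded Snhg1. The part of host reads in this row was not tested.

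**Figure D3:**
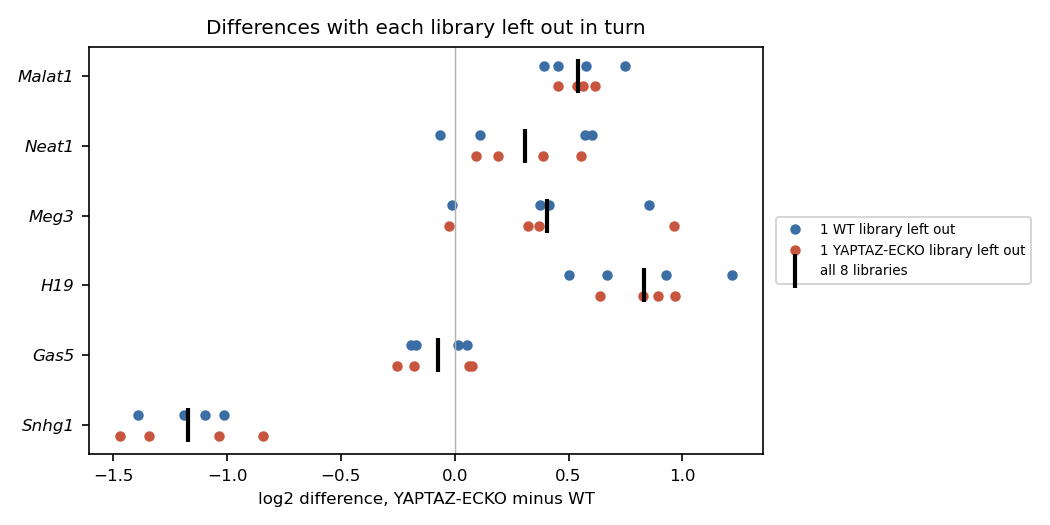
Log2 difference (x axis, YAPTAZ-ECKO minus WT) of each tested long noncoding RNA with all 8 libraries (black bar) and with 1 WT (blue) or 1 YAPTAZ-ECKO (red) library left out. Malat1 stays between 0.39 and 0.75, H19 between 0.50 and 1.22 and Snhg1 between -1.47 and -0.84, while Neat1, Meg3 and Gas5 have estimates on both sides of 0.

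Some libraries recurred at the ends of the order. YAPTAZ-ECKO 1 had the highest value of the 8 libraries for Malat1, Neat1 and Meg3, and the lowest for Snhg1. WT 4 had the lowest value for Malat1, Neat1 and H19, shared the lowest for Meg3, and had the highest for Rian. YAPTAZ-ECKO 1 also had the lowest implied depth, 6.76 M reads, and WT 4 had 10.905 M. Rn45s, the ribosomal RNA precursor, took 13.8% of YAPTAZ-ECKO 1 and 13.1% of WT 4, within the 8.39% to 14.8% of the other libraries. Erythroid markers were compared with rows of identical values counted once, since Hba-a1 and Hba-a2 shared their values, as did Hbb-b1 and Hbb-bs. They then summed to 30022 scaled reads in YAPTAZ-ECKO 1 and 12151 in WT 4, within 8937 to 25046 in WT and 9039 to 30071 in YAPTAZ-ECKO. YAPTAZ-ECKO 1 thus lay above all WT libraries, and all 6 tested erythroid rows had higher fitted values in YAPTAZ-ECKO, with none that passed. Without YAPTAZ-ECKO 1 the log2 differences were 0.45 for Malat1, 0.09 for Neat1, -0.03 for Meg3, 0.83 for H19, -0.18 for Gas5 and -0.84 for Snhg1. The part of these in the levels of the noncoding RNAs was not tested.

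Relations across the 8 libraries were computed for the 6 pairs of the 4 RNAs above 0 in every library. None passed after adjustment over the 6 pairs. Malat1 and H19 had a Pearson r of 0.751 (exact permutation p = 0.0331, adjusted 0.199) and a Spearman rho of 0.524 (exact permutation p = 0.197, adjusted 0.590). Without WT 2 and WT 4, the libraries farthest from the median of Malat1, r was -0.17 (n = 6). The r over all 8 thus depends on these 2 together. They hold the lowest values of Malat1, so leaving them out also narrows its range. Within groups, r of Malat1 and H19 was 0.658 over the 4 WT and 0.421 over the 4 YAPTAZ-ECKO libraries. With 1 library left out, r of Malat1 and H19 stayed between 0.542 (without WT 4) and 0.884 (without WT 3). Malat1 and Neat1 had an r of 0.564 (exact permutation p = 0.15, adjusted 0.4501) and a rho of 0.643 (exact permutation p = 0.0962, adjusted 0.577). Without WT 2 and WT 4 that r was 0.941, and without WT 2 alone it was 0.933 (exact permutation p = 0.000198, adjusted 0.00119, n = 7). This p is the smallest that 7 libraries allow. It was adjusted over the 6 pairs of that fit and not over the 8 libraries left out in turn. The other left-out fits gave r from 0.240 to 0.607 for this pair. WT 2 combined a low Malat1 with one of the highest values of Neat1. It was left out only as 1 of the 8 libraries in turn and, with WT 4, as 1 of the 2 farthest from the median of Malat1. Within groups, r of Malat1 and Neat1 was 0.490 over the 4 WT and 0.938 over the 4 YAPTAZ-ECKO libraries, too few for a test of each. Neat1 and H19 had an r of 0.287, and the 3 pairs with Gas5 had r between -0.05 and 0.10.

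**Figure D4:**
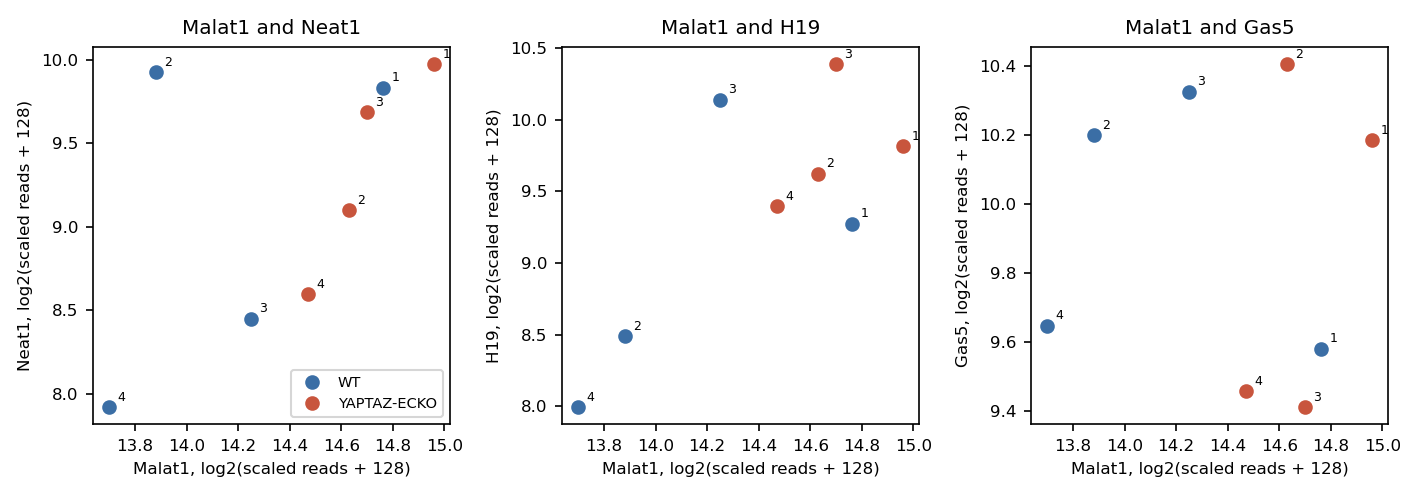
Malat1 (x axes) against Neat1, H19 and Gas5 (y axes), all as log2(scaled reads + pseudocount); each point is 1 library, numbered, in WT (blue) or YAPTAZ-ECKO (red). WT 2 stands apart from the other 7 in the panel of Malat1 and Neat1 (r = 0.564 with it and 0.933 without), and the panel of Gas5 shows no common order.

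The genes most like each of these 4 RNAs were sought by Pearson r among the 1935 genes whose mean reached 1000 scaled reads, over the 8 libraries. These r are descriptions only, since each is the highest of many and all genes share the same libraries and depths. Nearest to Malat1 were 4632428N05Rik (r = 0.946), Slc6a6, the taurine transporter (0.936), and Syt7, a synaptotagmin (0.928). Nearest to Neat1 were Pabpn1, a nuclear poly(A)-binding protein (0.934), the cyclin gene Ccnd2 (0.907) and Hnrnpa2b1, an RNA-binding protein (0.879). H19 was followed most closely by the calcium channel gene Orai1 (0.948), Jup, which encodes plakoglobin (0.948), and Hnrnpu (0.915). Nearest to Gas5 were Tnks2, a tankyrase (0.901), and the nucleotidase gene Cant1 (0.893).

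Among other snoRNA and small-RNA host genes, 14 of 27 listed genes were tested, and 0 rose and 0 fell, against 0.0345% called of all tested genes. Lower fitted values were found for 10 and higher for 4, against 56.9% lower among all tested genes. The median log2 difference was -0.30 against -0.09 over all tested genes. Snhg7 had the smallest p of this list. It stood at 18.99, 281, 136 and 224 scaled reads in WT 1 to 4 and was listed at 0 in all 4 YAPTAZ-ECKO libraries, so that the groups did not overlap. Groups did not overlap for 3.4% of all tested genes. The limma adjusted p of Snhg7 was 0.746, and no fold is given against a group at 0. Rpl13a and Rps29, ribosomal protein genes, were the most abundant of the list. Rpl13a stood at 6518 ± 2956 in YAPTAZ-ECKO against 8793 ± 4024 in WT, and Rps29 at 7635 ± 2900 against 6788 ± 1266 (SD, n = 4 each).

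The list of other long noncoding RNAs had 9 of 32 genes tested, with 0 that rose and 0 that fell, against 0.0345% called of all tested genes. It had 5 higher and 4 lower fitted values, and a median of 0.06. Xist, the RNA that coats the inactive X chromosome, was the most abundant of them. It stood at 17929, 8255, 22931 and 4611 scaled reads in WT 1 to 4 and at 6299, 8434, 4150 and 6.91 in YAPTAZ-ECKO 1 to 4. YAPTAZ-ECKO 4 was thus near 0 and the other 7 libraries stood at 4150 or more. The labels give no sex. The log2 difference of Xist was -2.26 ± 1.44 (SE; limma adjusted p = 0.981), and that of its antisense partner Tsix was -2.12 ± 1.06 (SE; adjusted p = 0.928). The labels do not name a strand setting, so reads of this pair cannot be told apart.

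Imprinted protein-coding genes had 12 of 24 members tested, 6 with higher and 6 with lower fitted values, a median of -0.00 and none that passed. Gnas, which encodes a G protein alpha subunit, was the most abundant, at 19820 ± 7443 scaled reads in YAPTAZ-ECKO against 23464 ± 2681 in WT (SD, n = 4 each; limma adjusted p = 0.982). Grb10, a growth factor receptor adaptor, stood at 2266 ± 545 against 2528 ± 1269. Mest had the smallest p of the list, and its difference on the log2 scale was 0.75 ± 0.44 (SE; limma adjusted p = 0.960). Thus no imprinted gene of the list was called, against 0.0345% of all tested genes.

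The protein partners of these RNAs gave 0 calls, against 0.0345% of all tested genes called. Among all tested genes, 56.9% had lower fitted values. Of 16 paraspeckle protein genes, all tested, 10 had lower and 6 higher fitted values, with a median of -0.24. Hnrnpk stood at 28373 ± 6283 scaled reads in YAPTAZ-ECKO against 36253 ± 4286 in WT (SD, n = 4 each). Smarca4, a chromatin remodelling subunit with the smallest p of the list, differed on the log2 scale by 1.34 ± 0.42 (SE; limma adjusted p = 0.636). Of 17 nuclear speckle protein genes, all tested, 10 had lower and 7 higher fitted values, with a median of -0.05. Srsf5 and Acin1 were the most abundant of them, with log2 differences of -0.05 ± 0.28 and -0.10 ± 0.28 (SE). Tra2a, a splicing factor gene, stood at 528, 188, 198 and 783 scaled reads in WT 1 to 4 and at 145, 0, 75.2 and 0 in YAPTAZ-ECKO 1 to 4. Tra2a was named for the smallest p of its list. Its groups did not overlap, as for 3.4% of all tested genes, and its limma adjusted p was 0.764.

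Of 14 nonsense-mediated decay factors 13 were tested, 8 with lower and 5 with higher fitted values, a median of -0.09 and none that passed. Of all tested genes 0.0345% passed. Rbm8a and Magoh, exon junction proteins, were the most abundant, with log2 differences of 0.34 ± 0.34 and 0.32 ± 0.37 (SE). Upf1, the central helicase of this pathway, stood at 109, 361, 265 and 718 scaled reads in WT 1 to 4 and at 0, 3.53, 0 and 303 in YAPTAZ-ECKO 1 to 4. The groups overlapped through YAPTAZ-ECKO 4, and the limma adjusted p was 0.882. Of 8 genes for proteins of the snoRNA particles 7 were tested, with a median of -0.33 and none that passed. Fitted values were lower for 6 and higher for 1, against 56.9% lower among all tested genes. Nop10 stood at 755 ± 186 scaled reads in YAPTAZ-ECKO against 1147 ± 251 in WT, and Nhp2l1 at 445 ± 151 against 646 ± 337 (SD, n = 4 each). Gar1 had the smallest p of these, at -1.05 ± 0.57 on the log2 scale (SE; limma adjusted p = 0.928).

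**Figure D5:**
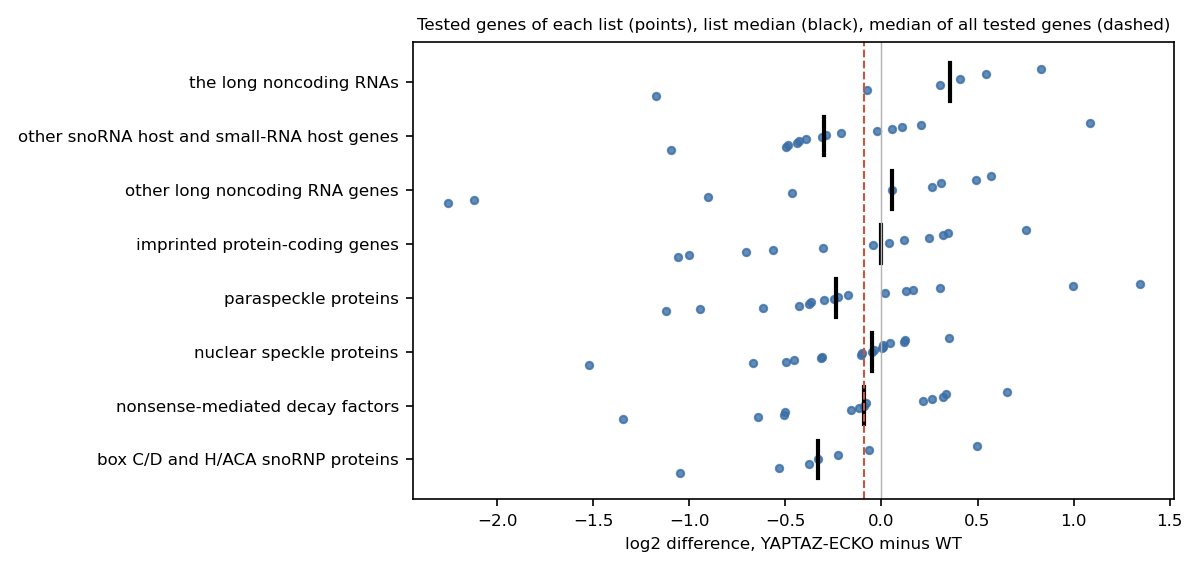
Log2 difference (x axis, YAPTAZ-ECKO minus WT) of every tested gene of the 8 RNA and protein lists, cell markers not shown (points), with the list median (black bars) and the median of all tested genes (dashed, -0.09). No point belongs to a called gene, and the medians of these lists run from -0.33 for snoRNA particle proteins to 0.36 for the long noncoding RNAs.

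Markers of other brain cells were low beside the endothelial ones. Pericyte and smooth muscle markers summed to 413 to 1714 scaled reads in WT and 156 to 1248 in YAPTAZ-ECKO, with all 10 above 0 in some library. Perivascular fibroblast markers summed to 110 to 474 and 0 to 215, with 5 of 6 above 0 in some library. Astrocyte markers summed to 766 to 1240 and 497 to 1075, most of it Gja1, with 6 of 7 above 0 in some library. Oligodendrocyte lineage markers summed to 1.99 to 547 and 230 to 1283, with Olig1 and Sox10 at 0 throughout. Microglia and leukocyte markers summed to 0 to 161 and 0 to 130, with Ptprc, P2ry12, Tyrobp and C1qa at 0 throughout.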

How the data were processed

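RNA of sorted brain endothelial cells was measured in 8 libraries, 4 WT and 4 YAPTAZ-ECKO. Per the labels' protocols, Trizol RNA (500 ng) and a Lexogen Quant-Seq kit were used. Per the submitters' processing notes, Bowtie2, edgeR and mm10 were used. Not given in the sources used here: versions, counter, annotation and strand. Per library, the authors deposited 1 log2 value per gene symbol, none below 0; the unit was settled from the values, because 89.8% to 100% of linear values under 12 lay within 0.1 of a whole multiple of a step. Such values are read as log2 of scaled reads. Of 24421 symbols per table, 24394 were shared by all.

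The planned fit was limma (3.58.1, R 4.3.3) using robust, trended variance moderation and no covariates, on log2(scaled reads + 128), for genes reaching 10 scaled reads in 4 or more libraries, adjusted by Benjamini-Hochberg over all 8706 genes. It was tested on simulated libraries. Genes named are the 8 RNAs, their nearest protein-coding genes, the 3 genes most like each, and of each list the 2 most abundant by scaled reads and the smallest p; Igf2, Tsix and the Dlk1-Dio3 genes fall under these rules as neighbours or list members. Some genes that these rules name are not reported here. The RNAs and all lists were chosen with earlier results of these data known. Alternatives covered scaling, filters, pseudocounts, voom, a replicate block and each library left out.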

Additional observations from a re-analysis of the deposited data

Results flagged for a closer look

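Rian in the YAPTAZ-ECKO group held 1 library far from the others. YAPTAZ-ECKO 3 stood at 49.97 scaled reads where YAPTAZ-ECKO 1, 2 and 4 stood at 4.69, 0 and 1.17. The gap to the nearest library made up 0.906 of the range of the group, above Dixon's 95% critical value for 4 libraries. Of 14 groups examined in this way, chance alone would flag about 1 in 20 if values were normally distributed. The values of Rian lie near 0, so that rate need not hold for them. In WT, Rian reached 72.6 in WT 4 and 43.4 in WT 3, so the high value lay within the range of the other group.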

How the results depend on the processing

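The count of 3 called genes became 0 without a filter on low values and 0 with voom on rebuilt reads. It became 5 with the replicate number as a block, and ran from 0 (without WT 2) to 7 (without YAPTAZ-ECKO 3) when 1 library was left out, with 1 without WT 1 and 1 without WT 4. With no call, voom left 583 and the unfiltered fit 600 genes at an unadjusted limma p under 0.05. None of the 6 tested RNAs was called in any of these fits. Upper quartile scaling moved the median of all genes from -0.09 to -0.22 and voom to -0.27; the 6 tested RNAs kept their signs in both. Left-out libraries gave -0.0645 to 0.60 for Neat1, -0.0274 to 0.96 for Meg3 and -0.25 to 0.0778 for Gas5, so these signs turned; Malat1 (0.39 to 0.75), H19 (0.50 to 1.22) and Snhg1 (-1.47 to -0.84) kept theirs. The estimate of Snhg1 was -0.56 with the larger pseudocount tried and -2.14 with the smaller. Of the 6 pairs of RNAs, 0 passed with all libraries, with equal totals, without Rn45s and ribosomal protein genes, and with either other pseudocount; 1 passed without WT 2 (range 0 to 1 over left-out libraries). Upper quartile scaling, filters, voom and the block were not run for the pairs. With equal library totals r of Malat1 and Gas5 was 0.00339 in place of -0.05. Over left-out libraries that r ran from -0.29 to 0.11, that of Neat1 and H19 from -0.31 to 0.56, that of Neat1 and Gas5 from -0.0879 to 0.30 and that of H19 and Gas5 from -0.13 to 0.42. Same-numbered libraries had deviations correlated at -0.03, -0.04, 0.07 and 0.08 for numbers 1 to 4. WT 1 and WT 2 correlated best with another number, and WT 3 and WT 4 with their own. Values this small cannot decide whether the numbers pair the libraries. The r of Malat1 and Neat1 ran from 0.240 (without WT 4) to 0.933 (without WT 2). The cause of these moves was not tested.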
